A study of Mus musculus with 10 samples.

Results

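Extracellular proteases and their inhibitors were examined in sorted mammary epithelial cells of the mouse. The genes were chosen by a rule on their names. It took the matrix metalloproteinases (Mmp), the ADAM and ADAMTS metalloproteinases, the trypsin-like serine proteases (Tmprss, Prss, Klk, Plat, Plau, St14) and the cathepsins (Cts). It also took the TIMP, serpin, Kunitz (Spint) and WAP domain (Wfdc, Slpi) inhibitors. The rule itself used no measured value, but it was set with earlier results of these data known. The table it was applied to held only probe sets that differed at least 4-fold between some arrays. Of 2560 named genes in the deposited table, 49 belonged to these families, on 69 of 3663 probe sets. They were 4 Mmp, 5 Adam, 6 Adamts, 9 trypsin-like, 9 cathepsin, 2 Timp, 8 serpin, and 6 Kunitz or WAP genes. The symbol Cstf2t shares its opening letters with the cystatins but is no cystatin and was left out, and the table held no cystatin.

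RNA was measured on Affymetrix mouse expression arrays, 10 in all, with 2 for each of 5 populations sorted from the mammary glands of virgin FVB females aged 6 to 8 weeks. The labels give no transgene, deletion or treatment for any group, and cells bearing CD45, CD31, Ter119 or CD140α were removed from all of them. CD24medCD49f-/low and CD24highCD49fmed cells were the luminal populations (4 arrays), the second of them described in the study as luminal progenitors. CD24medCD49fmed, Thy-1+CD24medCD49fhigh and Thy-1-CD24medCD49fhigh cells were the basal populations (6 arrays). Myoepithelial cells are CD24lowCD49fmed in the text of the study but CD24medCD49fmed in the labels, and whether these are 1 gate is not stated. The labels do not give separate animals for the arrays of a population, and the p-values then reflect the spread between these samples alone, which may be technical.

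Secreted and membrane-bound proteases cut matrix proteins, growth factors and receptors, and each large family is met by inhibitors of its own. TIMPs block metalloproteinases, most serpins trap serine proteases by a covalent bond, and Kunitz and WAP domain proteins block trypsin-like and elastase-like enzymes. In the mammary gland, metalloproteinases and the plasminogen activators act in ductal branching and in the remodeling after weaning, while the cathepsins work mainly in lysosomes and can be secreted.

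The 250 bases before the transcription start are shown for the 2 genes that differed most each way between basal and luminal cells, out of the 35 genes with a promoter in the table used (RefSeq, GRCm38.p6). Serpinb11 (chr1:107362064-107362313, plus strand) and Serpinf1 (chr11:75422624-75422873, minus strand) were higher in basal cells. Ctsr (chr13:61164189-61164438, minus strand) and Tmprss2 (chr16:97611196-97611445, minus strand) were higher in luminal cells. Capitals mark matches to the AP-1 motif TGANTCA in Serpinb11 and to the TEAD motif GGAATG in Tmprss2, each searched on both strands.
Serpinb11: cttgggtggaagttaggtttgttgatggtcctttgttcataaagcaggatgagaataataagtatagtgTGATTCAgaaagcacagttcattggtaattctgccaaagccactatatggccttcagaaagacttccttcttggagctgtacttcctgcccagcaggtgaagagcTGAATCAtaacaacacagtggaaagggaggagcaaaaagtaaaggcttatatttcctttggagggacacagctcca
Serpinf1: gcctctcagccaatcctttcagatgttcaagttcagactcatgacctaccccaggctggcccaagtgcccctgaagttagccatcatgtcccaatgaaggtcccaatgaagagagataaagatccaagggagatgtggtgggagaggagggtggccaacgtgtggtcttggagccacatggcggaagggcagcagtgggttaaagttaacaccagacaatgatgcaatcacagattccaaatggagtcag
Ctsr: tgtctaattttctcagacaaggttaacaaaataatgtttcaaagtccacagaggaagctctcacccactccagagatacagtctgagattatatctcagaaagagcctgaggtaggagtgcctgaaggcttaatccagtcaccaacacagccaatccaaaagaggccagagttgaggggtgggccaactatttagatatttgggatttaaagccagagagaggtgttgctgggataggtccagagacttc
Tmprss2: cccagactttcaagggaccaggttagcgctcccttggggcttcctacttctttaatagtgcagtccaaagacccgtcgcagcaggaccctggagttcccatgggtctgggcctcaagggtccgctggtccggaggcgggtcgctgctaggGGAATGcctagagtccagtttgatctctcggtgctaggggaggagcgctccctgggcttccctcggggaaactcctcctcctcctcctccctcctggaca
The AP-1 motif began 181 and 76 bases before the Serpinb11 start, and the TEAD motif 100 bases before that of Tmprss2. Among the genes called below, 20 that were higher in basal cells and 9 that were lower had a promoter in the table. AP-1 was found in 1 of the 20 (Serpinb11) and 0 of the 9, against 6.85% of all 27025 promoters. TEAD was found in 1 of each (Serpinb6a and Tmprss2), against 12.6%. The motif TGTTTAC of FOXA factors was in Adam19 (3.06% of all), the ETS motif CCGGAAGT in Spint1 (2.92%), the p53 and p63 motif in Serpina3n (7.16%) and the CArG box in none (1.41%). Over the 2002 promoters of genes in the deposited table, the shares were 4.9% for AP-1 and 11.3% for TEAD. They were 2.55% for FOXA, 4.55% for ETS, 5.69% for p53 and p63 and 1.6% for the CArG box. All of these are matches of letters only.

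All values were log2 intensities that the authors had centered, so that each probe set averaged 0 over the 10 arrays. They show differences between arrays and no abundance, and the level of 1 gene cannot be set against that of another. The table held only probe sets that differed at least 4-fold between some arrays. Before the genes were compared, the labels were checked against markers. Of all features, 34.7% were called higher in basal cells and 41.3% lower. All 6 basal markers were called higher in basal cells (median difference 3.63), and 4 of the 6 luminal markers in the table were called lower (median -1.30). Several markers of other cells were also higher on the basal side. The fibroblast list (7 of 11 in the table) had 6 genes called higher and 1, Col6a3, called lower (-2.23). Its list medians were -1.30 to -0.90 in the luminal arrays and -0.23 to 1.55 in the basal ones. Schwann cell markers (4 of 7 in the table) had 4 called higher, pericyte markers (6 of 6) 4 and epidermal keratinocyte markers (8 of 13) 4. None of these 3 lists had a gene called lower, but the pericyte marker Notch3 (-0.54) and the keratinocyte marker Sprr1a (-0.45) ran the other way. The only leukocyte marker in the table, Lcp1, was lower. No endothelial marker was in the table. The keratinocyte signal lay mainly in 2 basal arrays, as with the epidermal keratin Krt1 at 3.32 in Thy-1+CD24medCD49fhigh replicate 1 and 2.86 in CD24medCD49fmed replicate 2 but at most 0.24 in the others. The part of these cells in the results below was not tested, and in sorted bulk samples a change in the number of cells of a type cannot be told apart from a change in RNA per cell.

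The arrays of a population did not match equally well. Over the 49 genes, the mean absolute difference between partner arrays was 0.276 for CD24highCD49fmed, 0.548 for Thy-1-CD24medCD49fhigh, 0.568 for CD24medCD49fmed, 0.703 for Thy-1+CD24medCD49fhigh. It was widest, at 0.838, for CD24medCD49f-/low cells. There, 17 of the 49 genes differed by more than 1 on the log2 scale between the 2 arrays.

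**Figure D1:**
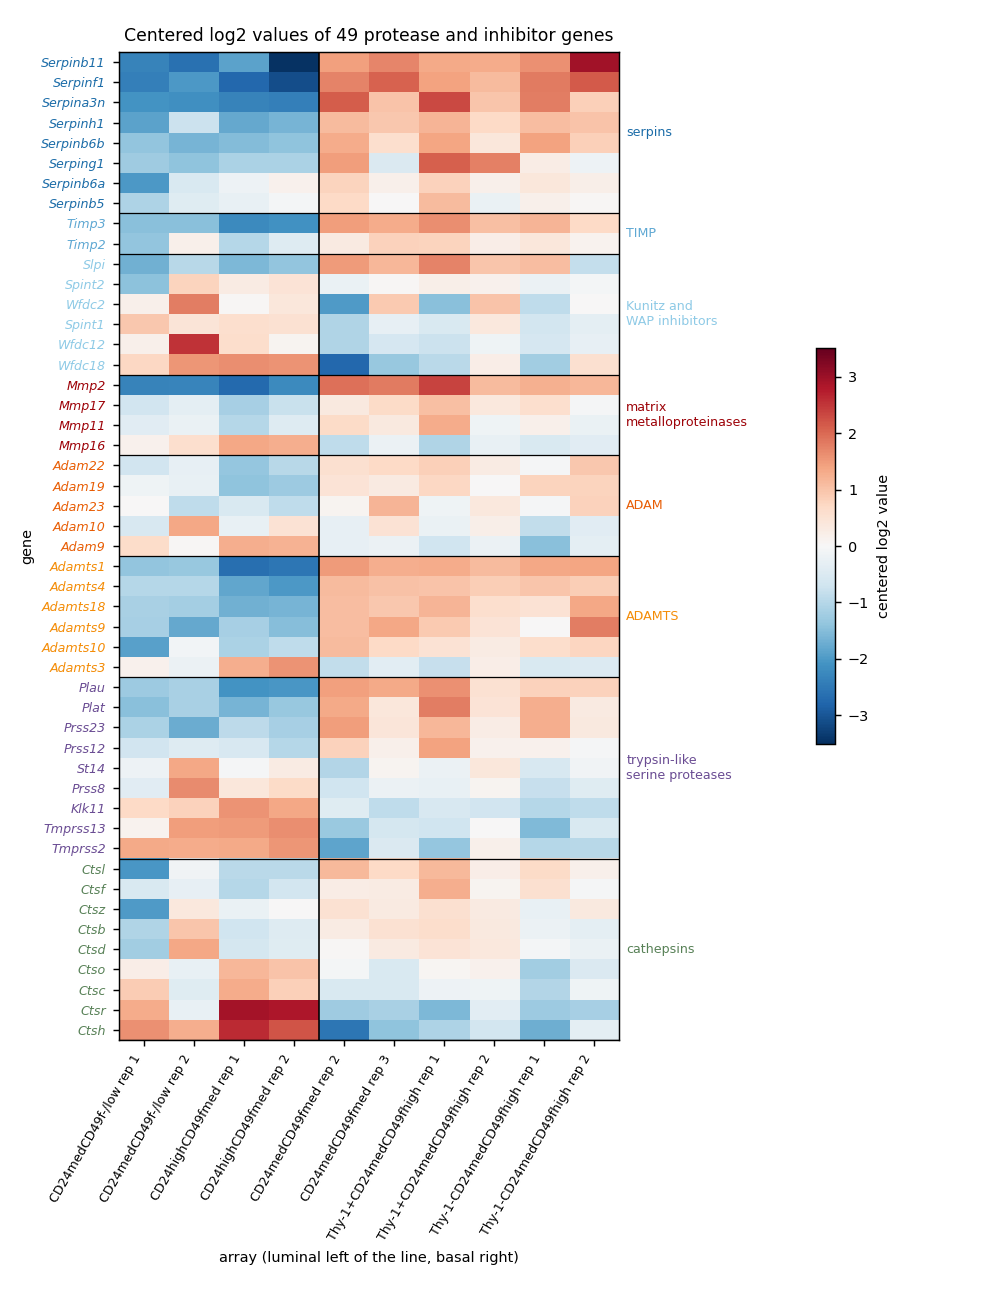
Centered log2 values (color) of the 49 genes (rows, grouped by family) in the 10 arrays (columns), luminal arrays left of the line and basal arrays right. Most serpins, Timp3 and most ADAMTS genes are low in the luminal arrays and high in the basal ones, although Serping1 is at -0.51 and -0.19 in 2 basal arrays, and Ctsh, Ctsr, Klk11, Tmprss2, Tmprss13 and Wfdc18 run the other way.

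The comparison of the 3 basal with the 2 luminal populations asked how the 2 layers of the ductal epithelium differ in these genes. By limma with Benjamini-Hochberg adjustment over all 2932 features, 41 of the 49 genes (83.7%) were called at an adjusted p under 0.05, against 76.0% of all features. There were 27 genes higher in basal cells, where 34.7% of all features were higher, and 14 lower, where 41.3% of all were lower. The median difference, basal minus luminal, was 1.01 over the 49 genes and -0.11 over all features, and the median size of the difference was 1.42 against 1.20. In 25 genes every basal array lay above every luminal array and in 10 every one lay below, against 25.2% and 23.8% of all features. Leaving out each array in turn kept the call of 33 of the 41 genes. The calls of the other 8 were each lost in at least 1 of those fits. Timp2 and Serpinb6a lost it without CD24medCD49f-/low replicate 1 or CD24highCD49fmed replicate 1, and Ctsc and Ctsf without the latter. Mmp11 lost it without replicate 1 of CD24highCD49fmed, Thy-1+CD24medCD49fhigh or Thy-1-CD24medCD49fhigh cells or CD24medCD49fmed replicate 2, and Ctso without either CD24highCD49fmed array or CD24medCD49fmed replicate 3. Adam23 lost it without the array of higher number of any population, and Prss8 without 6 of the 10 arrays in turn. Their differences over these fits came down to 0.72 for Timp2 and ran from 0.69 to 1.44 for Serpinb6a, 0.63 to 1.12 for Mmp11, 0.73 to 1.18 for Adam23, 0.82 to 1.20 for Ctsf, -1.40 to -0.75 for Ctsc, -1.01 to -0.76 for Ctso and -1.47 to -0.45 for Prss8. Without the 2 arrays high in keratinocyte markers, an alternative chosen after seeing the data, 23 genes were called higher and 11 lower, and 34 of the 41 calls held. Besides Mmp11, Prss8, Serpinb6a and Ctsf, the calls lost there were those of Prss12 (0.79, adjusted p = 0.0604), Spint1 (-0.77, adjusted p = 0.0668) and Wfdc12 (-1.25, adjusted p = 0.0612). By rank products at a p under 0.01, 14 of the 49 genes were higher (7.81% of all features) and 5 lower (7.37%).

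Counted by family name, the inhibitor families had 10 of 16 genes called higher in basal cells and 3 called lower, with a median difference of 1.57. The protease families had 17 of 33 higher and 11 lower, with a median of 0.87. For these counts and those of each family below, 34.7% of all features were called higher and 41.3% lower, with a median of -0.11. The inhibitor families include Serpinf1 and Serpinh1, which do not inhibit proteases. The protease families include Adam22 and Adam23, which lack protease activity.

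Matrix metalloproteinases came first. Mmp2, gelatinase A, which cuts denatured and basement membrane collagen, had values of -2.34, -2.32, -2.73 and -2.24 in the luminal arrays. In the 6 basal arrays it ran from 1.10 to 2.37 with a median of 1.53, so the sides were far apart. The difference was 4.01 ± 0.34 (SE), or 16.1-fold, with a limma adjusted p of 9.85e-09, and both of its probe sets showed it (3.81 and 4.21). Mmp17, a membrane-anchored metalloproteinase, was higher by 1.24 ± 0.33, and Mmp11, stromelysin 3, by 0.87 ± 0.35. Thy-1+CD24medCD49fhigh replicate 1 held the highest Mmp11 value, 1.31, and the other basal arrays lay between -0.23 and 0.67. Mmp16, another membrane-type enzyme, was the single Mmp gene that was lower in basal cells, by -1.39 ± 0.33 (adjusted p = 0.00108). All 4 luminal arrays lay above all basal ones for Mmp16, at 0.15 and 0.58 in CD24medCD49f-/low and 1.34 and 1.27 in CD24highCD49fmed cells.

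Of the ADAMTS genes, secreted enzymes that bind matrix, 5 of 6 were higher in basal cells (median difference of the family 2.34). Adamts1, which cuts the proteoglycans versican and aggrecan, had basal values between 1.11 and 1.48 and a difference of 3.29 ± 0.31 (9.78-fold, adjusted p = 3.87e-08). Its luminal values were -1.39 and -1.33 in CD24medCD49f-/low and -2.64 and -2.53 in CD24highCD49fmed cells. Adamts4, also a proteoglycanase, was higher by 2.42 ± 0.31, Adamts18 by 2.34 ± 0.33, Adamts9 by 2.34 ± 0.37 and Adamts10, a relative tied to fibrillin, by 1.67 ± 0.36. For these 5 genes no basal array overlapped a luminal one. Adamts3, a procollagen N-proteinase, was the exception, lower in basal cells by -1.16 ± 0.33 (adjusted p = 0.00444). It was at 1.28 and 1.57 in CD24highCD49fmed cells but at 0.15 and -0.21 in CD24medCD49f-/low cells, the latter within the basal range of -0.87 to 0.24.

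The ADAM family was split. Adam22 and Adam23, which lack protease activity and act in cell adhesion, were higher in basal cells by 1.37 ± 0.33 and 0.95 ± 0.36, and Adam19 by 1.29 ± 0.32. Adam9, a catalytic sheddase, was lower by -1.32 ± 0.34, with luminal values of 0.03 to 1.28 and basal values of -1.46 to -0.20. Adam10, the sheddase of Notch, was not called (-0.44 ± 0.39, adjusted p = 0.297). Its values in CD24medCD49f-/low cells were -0.56 and 1.36, and without the first of these arrays it was called at -0.92 (adjusted p = 0.0196).

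The TIMP genes in the table were both higher in basal cells. Timp3, the TIMP that binds to matrix, measured -1.47 and -1.47 in CD24medCD49f-/low, -2.23 and -2.13 in CD24highCD49fmed, and 0.69 to 1.63 in basal arrays with a median of 1.24. The difference was 3.04 ± 0.32 (8.24-fold, adjusted p = 1.56e-07), and all 4 of its probe sets were called (2.38 to 3.89). Timp2, which inhibits Mmp2 and also takes part in its activation at the cell surface, was higher by 1.11 ± 0.36 with a value of -1.38 in CD24medCD49f-/low replicate 1 and 0.18 in its partner. Mmp2 and these inhibitors of it were higher on the same side.

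**Figure D2:**
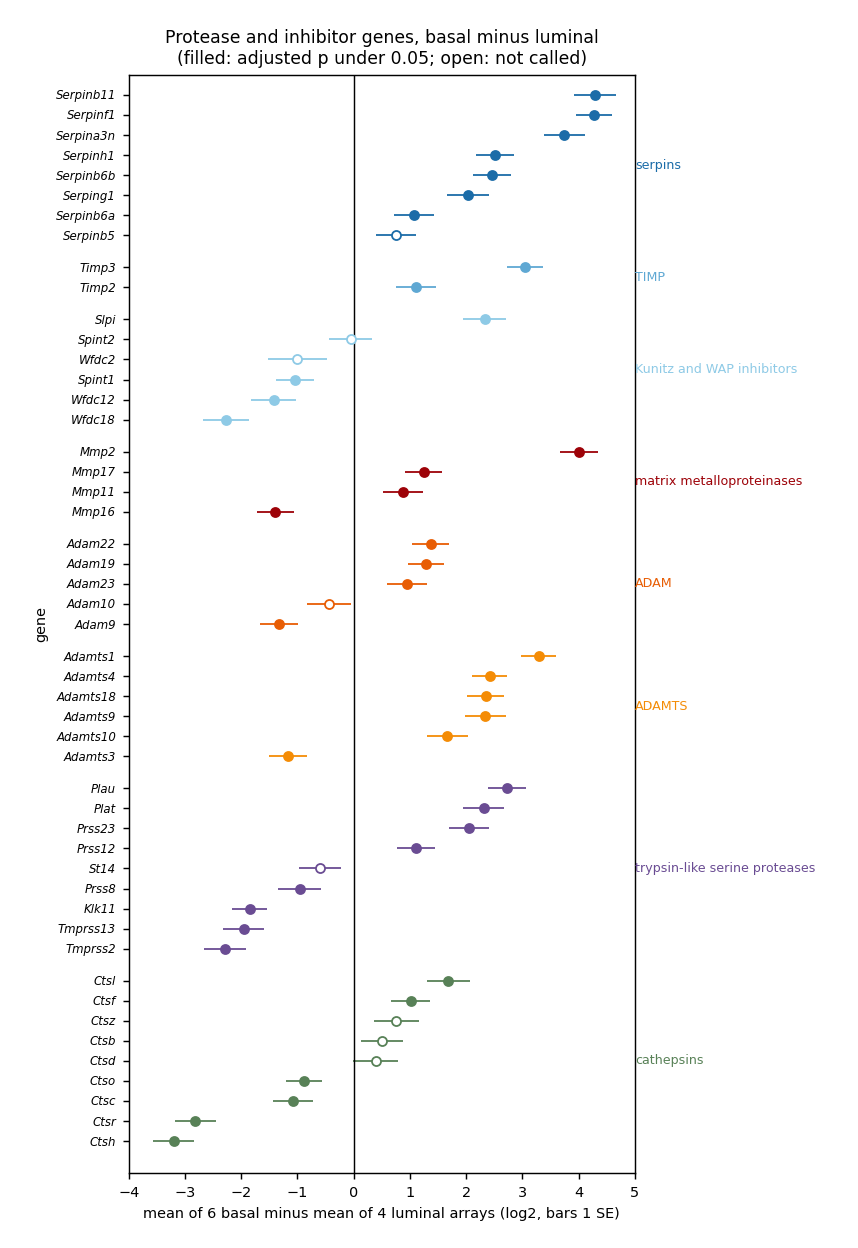
Difference of each of the 49 genes, basal minus luminal (3 populations against 2, each weighted equally), on the log2 scale with bars of 1 SE, filled where the limma adjusted p was under 0.05. Serpins lie right of 0 throughout, from 0.75 for Serpinb5 to 4.29 for Serpinb11, while Ctsh (-3.20) lies farthest left.

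Serpins held the largest differences. All 8 had a positive difference, 7 were called higher in basal cells and none lower, with a median of 2.49. Serpinb11, an intracellular clade B serpin, had values of -2.35, -2.60, -1.88 and -3.45 in the luminal arrays and of 1.29 to 2.93 in the basal ones. Serpinf1, the secreted pigment epithelium-derived factor, which restrains vessel growth and does not inhibit proteases, ran from -3.11 to -2.02 in the luminal arrays and from 1.10 to 2.16 in the basal ones. The differences were 4.29 ± 0.37 for Serpinb11 (19.5-fold, adjusted p = 1.18e-08) and 4.27 ± 0.32 for Serpinf1 (adjusted p = 3.43e-09). Serpina3n, a secreted serpin of the antichymotrypsin group, was higher by 3.75 ± 0.37 (13.4-fold), with luminal values between -2.40 and -2.10.

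Further members of the family do other work. Serpinh1, the collagen chaperone of the endoplasmic reticulum, which is no protease inhibitor, was higher in basal cells by 2.51 ± 0.33 (5.69-fold). Serpinb6b was higher by 2.46 ± 0.34 and Serpinb6a by 1.07 ± 0.36, and because these are close paralogs their probes may read each other's transcripts. Serpinb6a was at -2.02 in CD24medCD49f-/low replicate 1 and at -0.52 in its partner. Serping1, the C1 inhibitor of the complement and contact systems, was higher by 2.03 ± 0.37 but varied widely within the basal arrays, from -0.51 to 2.08. Serpinb5, maspin, first described in mammary epithelium, missed the threshold (0.75 ± 0.35, limma adjusted p = 0.0559). Its difference was 0.98 without Thy-1+CD24medCD49fhigh replicate 2 and 0.92 without CD24medCD49f-/low replicate 2, but came down to 0.53 over the arrays left out. Without the 2 arrays high in keratinocyte markers, which held its highest values (1.12 and 0.69), it was 0.42. Without replicate 1 of both Thy-1+CD24medCD49fhigh and CD24medCD49f-/low cells it was 0.36.

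Of the Kunitz and WAP inhibitors, 1 of 6 was called higher in basal cells (34.7% of all features) and 3 lower (41.3%), with a median of -1.03. The lower calls of Spint1 and Wfdc12 were lost without the 2 arrays high in keratinocyte markers. Slpi, a WAP inhibitor of elastase and cathepsin G, was the one that was higher, by 2.33 ± 0.38 (adjusted p = 3.14e-05). Its luminal values were -1.67 to -0.98, and 5 of the basal arrays were between 0.97 and 1.73, but Thy-1-CD24medCD49fhigh replicate 2 was at -0.84. Wfdc18, a WAP protein of mammary tissue, was lower in basal cells by -2.27 ± 0.41 (4.81-fold), from 0.72 to 1.62 in luminal arrays and from -2.75 to 0.55 in basal ones. Spint1, the surface inhibitor of matriptase and hepatocyte growth factor activator, was lower by -1.05 ± 0.34 (adjusted p = 0.00885), with luminal arrays at 0.45 to 0.95. Wfdc12 was lower by -1.42 ± 0.40, a value set largely by CD24medCD49f-/low replicate 2 at 2.53, and the difference was -0.83 without that array (adjusted p = 0.0211). Spint2 (-0.05 ± 0.38) and Wfdc2 (adjusted p = 0.0844) were not called. Wfdc2 swung between partner arrays on the basal side, from -1.99 to 0.92 in CD24medCD49fmed and from -1.47 to 1.01 in Thy-1+ cells. It was called lower without CD24medCD49f-/low replicate 1 (-1.41), CD24medCD49fmed replicate 3 (-1.49) or Thy-1+CD24medCD49fhigh replicate 2 (-1.42). It was also called with a replicate block (-1.71), which likewise sets CD24medCD49fmed replicate 3 aside. The Wfdc2 difference came down to -0.52 without CD24medCD49fmed replicate 2, -0.59 without Thy-1+CD24medCD49fhigh replicate 1, -0.60 without CD24medCD49f-/low replicate 2, and -0.10 without both arrays high in keratinocyte markers.

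Of the trypsin-like serine proteases, 4 of 9 were higher in basal cells (34.7% of all features), 4 lower (41.3%) and 1 not called (median -0.60). The secreted plasminogen activators were higher in basal cells, Plau (urokinase) by 2.73 ± 0.33 (6.61-fold, adjusted p = 9.08e-07) and Plat (tissue type) by 2.31 ± 0.36. Plau was at -1.28 and -1.13 in CD24medCD49f-/low, -2.10 and -2.03 in CD24highCD49fmed and 0.53 to 1.61 in basal arrays, with no overlap. Of the other secreted enzymes, Prss23 was higher by 2.05 ± 0.36 and Prss12, neurotrypsin, by 1.11 ± 0.34, while the kallikrein Klk11 was lower by -1.85 ± 0.32 (3.61-fold). The membrane-anchored enzymes of this family, a subgroup not planned beforehand, had no member called higher. Tmprss2, which spans the membrane, was lower in basal cells by -2.29 ± 0.37 (4.90-fold, adjusted p = 2.89e-05). Its luminal arrays lay close together at 1.31 to 1.55, while the basal arrays spread from -1.85 to 0.18, and its 4 probe sets were each called lower with sizes from -1.07 to -3.87. Tmprss13 was lower by -1.96 ± 0.36. Prss8, the lipid-anchored prostasin, was called at -0.96 ± 0.38 (adjusted p = 0.0271), with 1.65 in CD24medCD49f-/low replicate 2 and -0.40 to 0.66 in the other luminal arrays. St14, matriptase, which activates prostasin and is held by Spint1 and Spint2, was not called (-0.60 ± 0.37, adjusted p = 0.142), though it was without CD24medCD49f-/low replicate 1 (-0.98, adjusted p = 0.0147) and with a replicate block (-0.90, adjusted p = 0.0442). Without CD24medCD49f-/low replicate 2 the St14 difference was -0.21 (adjusted p = 0.555).

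Cathepsins had 2 of 9 genes higher in basal cells (34.7% of all features), 4 lower (41.3%) and 3 not called. Ctsh, an aminopeptidase among the lysosomal cysteine cathepsins, had values of 1.61 and 1.26 in CD24medCD49f-/low and 2.61 and 2.21 in CD24highCD49fmed cells, against -2.53 to -0.35 in basal arrays. It was lower in basal cells by -3.20 ± 0.36 (9.21-fold, adjusted p = 3.86e-07), the largest difference in that direction among the 49. Ctsr, a rodent cathepsin best known from placenta and measured by 1 probe set, was lower by -2.82 ± 0.37 (7.04-fold). Ctsc, which activates granule serine proteases, was lower by -1.08 ± 0.35 and Ctso by -0.88 ± 0.33. Ctsl, a broad lysosomal endopeptidase, was higher by 1.68 ± 0.38 and Ctsf by 1.01 ± 0.34.

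The lysosomal enzymes Ctsb, Ctsd and Ctsz were not called. Ctsb differed by 0.51 ± 0.37, Ctsd by 0.39 ± 0.40 and Ctsz by 0.76 ± 0.39. For Ctsb and Ctsd the arrays of CD24medCD49f-/low cells lay on either side of the basal range, as with Ctsd at -1.23 and 1.34 around basal values of -0.22 to 0.49. Without replicate 2 of that population all 3 were called higher in basal cells (Ctsb 1.01, Ctsd 1.03 and Ctsz 1.35, adjusted p = 0.00517, 0.00430 and 6.23e-04), and without replicate 1 Ctsd turned to -0.25.

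**Figure D3:**
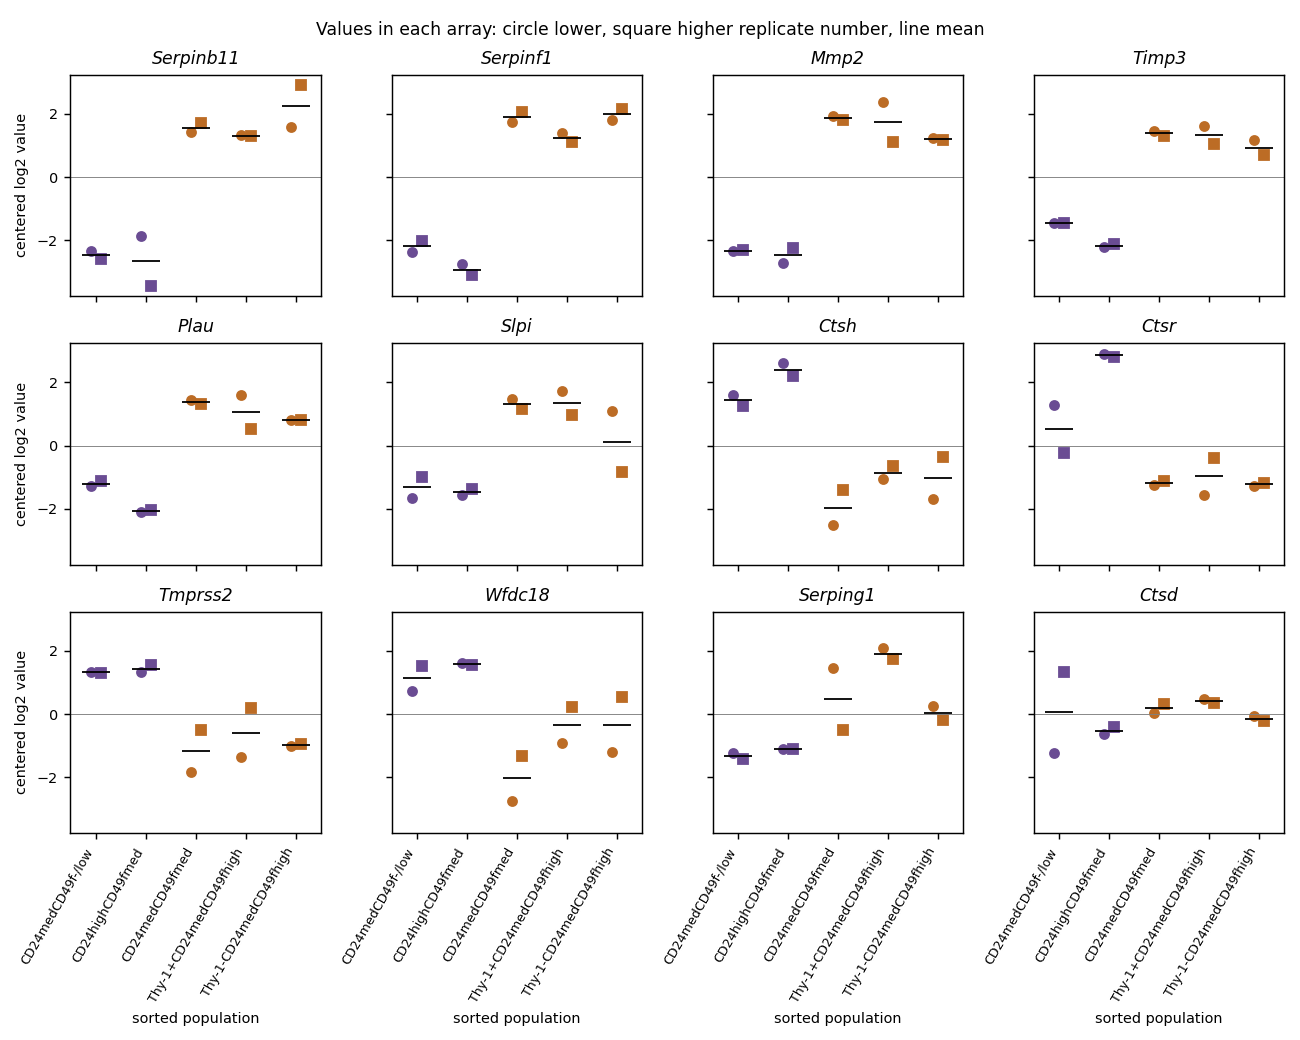
Centered log2 values of 12 genes in each array (circles, the lower replicate number, squares, the higher, lines, the mean of 2), luminal populations in purple and basal in orange. Serpinf1, Mmp2 and Timp3 separate the sides in every array, whereas Ctsd shows the gap of 2.57 between the 2 arrays of CD24medCD49f-/low cells.

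The genes with the highest mean were also counted by population. For 31 of the 49 genes (63.3%) the highest of the 5 population means was basal, against 46.8% of all features. That held for 8 of 8 serpins and 5 of 6 ADAMTS genes, while 5 of 6 Kunitz and WAP genes were highest in a luminal population. Of the genes, 12 (24.5%) were highest in CD24highCD49fmed cells, against 46.3% of all features, and 6 (12.2%) in CD24medCD49f-/low cells, against 6.86%.

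Each luminal population was then set against the basal arrays, which both comparisons share. CD24highCD49fmed cells had 12 genes higher and 26 lower than basal cells, or 77.6% called against 74.7% of all features (44.0% higher, 30.6% lower). The 26 became 17 without CD24highCD49fmed replicate 1. CD24medCD49f-/low cells had 8 higher and 19 lower, or 55.1% against 45.8% (18.3% higher, 27.5% lower). With array medians set to 0 the 8 became 13, and without the 2 arrays high in keratinocyte markers they became 3. Rank products called 2 higher (4.71% of all features) and 7 lower (4.60%) in CD24highCD49fmed cells, and 3 higher (3.92%) and 6 lower (4.57%) in CD24medCD49f-/low cells. There were 18 genes lower in both, where 22.8% of all features were, and 7 higher in both, where 17.6% were. The 7 were Ctsh, Ctsr, Klk11, Spint1, Tmprss13, Tmprss2 and Wfdc18. The 18 took in Mmp2, Timp3, Plau, Plat, Prss23, Ctsl, Slpi, 5 ADAMTS genes and 6 serpins.

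Differences from basal were given side by side for the leading genes. Ctsr was 3.98 ± 0.46 higher in CD24highCD49fmed cells (15.8-fold, adjusted p = 9.48e-07) and 1.65 higher in CD24medCD49f-/low cells. The second value fell to 0.87 without CD24medCD49f-/low replicate 1 (adjusted p = 0.177), which was at 1.29 beside -0.25 in its partner. Ctsh was 3.69 and 2.71 higher, Wfdc18 2.49 and 2.04, Tmprss2 2.35 and 2.23, and Tmprss13 2.33 and 1.58. On the basal side, Serpinf1 differed by -4.64 and -3.91, Serpinb11 by -4.38 and -4.19, Mmp2 by -4.09 and -3.94, Adamts1 by -3.90 and -2.68, Serpina3n by -3.87 and -3.62 and Timp3 by -3.40 and -2.69. Wfdc12 was called in CD24medCD49f-/low cells (1.92) and rested on replicate 2, since it was 0.74 without it (adjusted p = 0.171). Tmprss13 likewise was 0.92 there without replicate 2 (adjusted p = 0.112). Without the 2 arrays high in keratinocyte markers the differences in these cells were 1.61 for Wfdc18, 1.74 for Wfdc12, 1.43 for Ctsr and 1.35 for Tmprss13, none called (adjusted p of 0.0595 to 0.0799).

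Genes called in 1 luminal population alone numbered 15. CD24highCD49fmed cells alone were higher than basal for 5 genes, where 26.2% of all features were, namely Adam9, Adamts3, Ctsc, Ctso and Mmp16. They alone were lower for 8, where 7.84% of all features were, namely Adam19, Adam22, Adam23, Ctsf, Mmp11, Mmp17, Prss12 and Timp2. CD24medCD49f-/low cells alone were higher for 1 gene, Wfdc12 (0.648% of all features), and lower for 1, Serpinb6a (4.47%). A call on 1 side does not show that the luminal populations differ, which was tested directly.

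**Figure D4:**
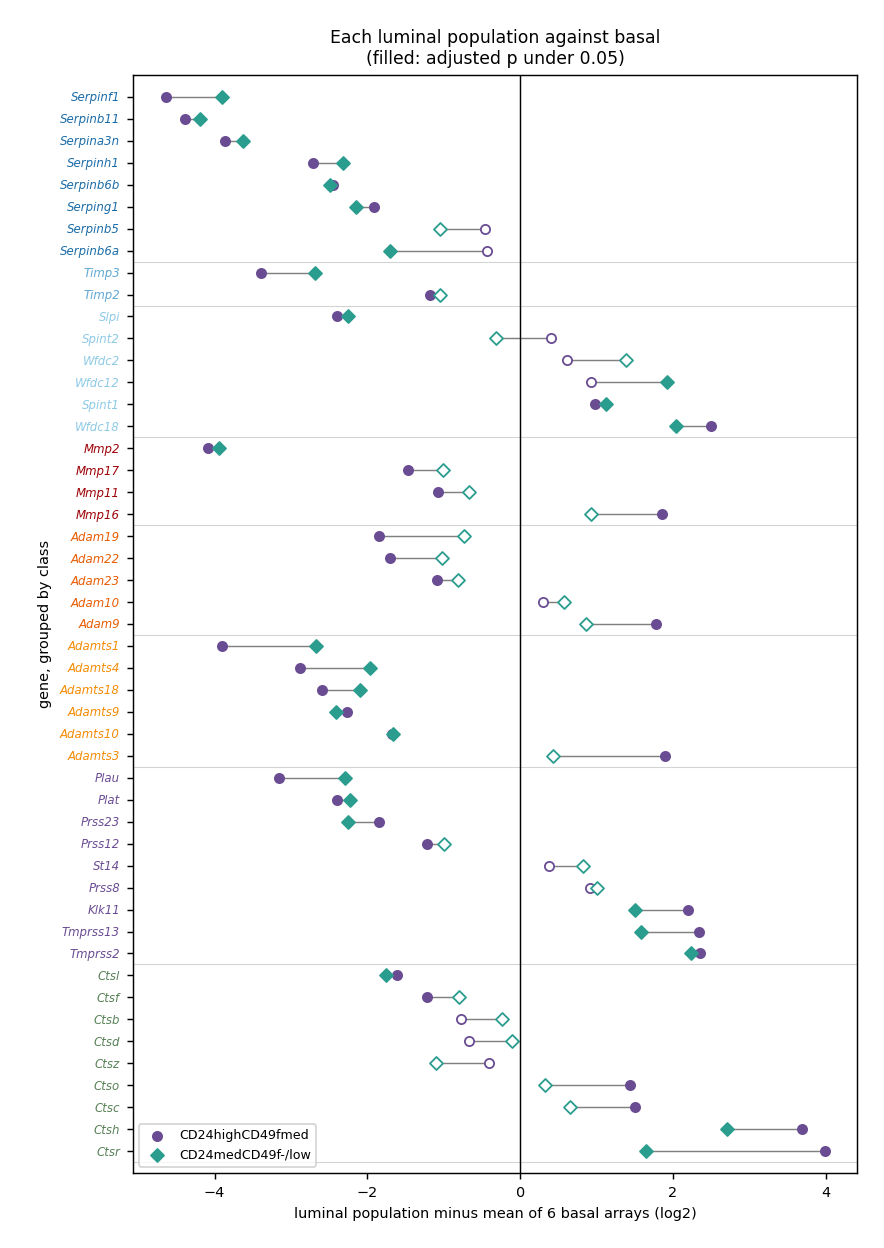
Difference from the mean of the 6 basal arrays on the log2 scale for CD24highCD49fmed cells (circles) and CD24medCD49f-/low cells (diamonds), filled where the limma adjusted p was under 0.05. For every gene but Spint2 both symbols lie on the same side of 0, and the widest gap between them is that of Ctsr (3.98 and 1.65).

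In the direct comparison of CD24highCD49fmed with CD24medCD49f-/low cells, limma called 0 of the 49 genes, against 0.205% of all features. At an unadjusted p under 0.05 there were 6 genes, where 15.4% of all features had one, and rank products, the test of the study, called 1 higher (Ctsr, against 1.77% of all features). Ctsr was at 2.90 and 2.82 in CD24highCD49fmed cells and at 1.29 and -0.25 in CD24medCD49f-/low cells, a difference of 2.34 ± 0.57 (limma adjusted p = 0.0866). Without CD24medCD49f-/low replicate 1 it was 3.11 (adjusted p = 0.00472), and without replicate 2 it was 1.56. Adamts3 differed by 1.46 ± 0.52 (adjusted p = 0.210) and Adamts1 by -1.23 ± 0.48 (adjusted p = 0.244). Their arrays did not overlap, but neither did those of 51.7% of all features in this comparison, nor of 12 of the 49 genes in each direction. Serpinb6a differed by 1.26 ± 0.55 (adjusted p = 0.272) and by 2.01 without CD24medCD49f-/low replicate 2 (adjusted p = 0.0399), but by 0.51 without replicate 1 (adjusted p = 0.515).

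Within the basal side, Thy-1+ and Thy-1- cells of the CD24medCD49fhigh gate were compared, the pair that the study set out to tell apart. Limma called 0 of the 49 genes, against 0.0682% of all features, with 2 at an unadjusted p under 0.05 (2.52% of all features), and rank products called 1 higher (Serping1, against 1.40%). Serping1 had values of 2.08 and 1.76 in Thy-1+ and 0.27 and -0.19 in Thy-1- cells. The difference was 1.88 ± 0.57 (3.68-fold, unadjusted p = 0.00358, limma adjusted p = 0.524), and the CD24medCD49fmed arrays lay at 1.46 and -0.51. Beside it, the fibroblast list had medians of 1.14 to 1.55 in Thy-1+, -0.23 to -0.15 in Thy-1- and 0.42 to 1.29 in CD24medCD49fmed arrays, and the pericyte list 0.97 to 1.10 in Thy-1+ and -0.18 to 0.00 in Thy-1- arrays. The Schwann cell list had medians of 1.08 to 1.20 in Thy-1+ and 0.11 to 0.14 in Thy-1- arrays, and the keratinocyte list -0.04 to 2.14 and -0.73 to -0.65. The part of such cells in the Serping1 values and in the other differences of this pair was not tested. Slpi differed by 1.22 ± 0.59 and changed from 0.26 to 2.19 with the array left out, Ctso by 0.97 ± 0.50 and Serpinb11 by -0.96 ± 0.58. Ctso was 0.61 without Thy-1-CD24medCD49fhigh replicate 1, and Serpinb11 was -0.29 without replicate 2 of those cells and -1.63 without replicate 1. All 9 cathepsins had a positive difference (median 0.42), none called, and 8 did when array medians were set to 0. Positive differences were common in this pair, in 35 of the 49 genes and in 1907 of all 2932 features (median 0.15). Of the trypsin-like genes 8 of 9 were positive, before and after that scaling.

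CD24medCD49fmed cells were compared with the CD24medCD49fhigh cells of both Thy-1 classes. Limma again called 0 of the 49, against 0.0341% of all features, with 2 at an unadjusted p under 0.05 (1.77% of all), and rank products called 1 lower (Wfdc18, against 1.26%). Wfdc18 was at -2.75 and -1.32 in CD24medCD49fmed cells, at -0.93 and 0.22 in Thy-1+ and at -1.21 and 0.55 in Thy-1- cells. Its difference was -1.70 ± 0.55 (unadjusted p = 0.00528, limma adjusted p = 1.00), and -0.98 without CD24medCD49fmed replicate 2. Ctsh differed by -1.02 ± 0.49, which was -0.46 without CD24medCD49fmed replicate 2 and -1.59 without replicate 3. Slpi differed by 0.59 ± 0.51, from 0.11 without Thy-1-CD24medCD49fhigh replicate 2 to 1.07 without replicate 1. Serping1 differed by -0.50 ± 0.50, which turned to 0.48 without CD24medCD49fmed replicate 3 and was -1.49 without replicate 2.

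Genes that work with these families were read from fixed lists. For their counts, 34.7% of all features were called higher in basal cells and 41.3% lower, with a median of -0.11. Of 45 genes listed as other extracellular and surface proteases, not all of them enzymes, 12 were in the table. Of these, 8 were higher in basal cells and 1 lower (median 1.47). The secreted glycoprotein reelin (Reln) was higher by 4.36 ± 0.33, the secreted serine protease Htra1 by 2.87 ± 0.33, Cpxm2 by 2.74 ± 0.34 and the proprotein convertase Pcsk5 by 2.24 ± 0.35. The gene that was lower was F3, tissue factor, a cofactor in place of an enzyme, by 3.59-fold. Of 31 other inhibitors, 5 were in the table, 3 of them higher and 2 lower. The proteoglycan Spock2 was higher by 2.20 ± 0.35 and Reck, a membrane-anchored inhibitor of metalloproteinases, by 1.55 ± 0.36, while Itih2 and Itih5, of the inter-alpha-trypsin inhibitor heavy chains, were lower by -1.75 ± 0.49 and -1.60 ± 0.31.

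Of 34 receptors, cofactors and activators, 15 were in the table. Of these, 13 were higher in basal cells (34.7% of all features) and 2 lower (41.3%), with a median of 1.20. Lrp1, the receptor that clears protease and inhibitor complexes, was higher by 2.42 ± 0.36 and the thrombin receptor F2r by 2.32 ± 0.38. Hepatocyte growth factor (Hgf), a ligand that needs cutting by trypsin-like proteases, was higher in basal cells by 2.07 ± 0.34. Its receptor Met was lower there by -2.59 ± 0.33 (6.03-fold, adjusted p = 1.93e-06), on the same side as Spint1 and the Tmprss genes. None of the genes of these 3 lists was called in the comparisons within the luminal or within the basal side. Few features were called there at all: 0.205% between the luminal populations, 0.0682% for Thy-1+ minus Thy-1- and 0.0341% for CD24medCD49fmed minus CD24medCD49fhigh. Cpe, of the first list, differed by 2.24 ± 0.57 for Thy-1+ minus Thy-1- (limma unadjusted p = 7.72e-04, adjusted p = 0.206).

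For 13 of the 49 genes several probe sets had been averaged. In no comparison were probe sets of 1 gene called in opposite directions, and none had opposite signs between basal and luminal cells.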

How the data were processed

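Per the labels and the study's methods, RNA of 10 sorted samples was hybridized to Affymetrix mouse arrays. The authors normalized the intensities (RMA in the methods, RMA and GCRMA in the labels, versions not given in the sources used here). They dropped probe sets of low level or under 4-fold range and deposited log2 values centered on the mean of each probe set. Centering removed abundance, so neither depth nor signal over background can be read, and the number of arrays limits the precision.

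Probe sets were named from the platform annotation: 3291 had 1 symbol, 75 several and 297 none in it. Values were averaged per gene, giving 2932 features. One model with a mean per population was fitted to all 10 arrays (limma 3.58.1, R 4.3.3; 5 residual and 16.5 prior degrees of freedom). Tests were two-sided, with Benjamini-Hochberg adjustment over all features. The script was tested on simulated data.

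The members and lists were chosen with earlier results of these data known. Full statistics were given for the 8 largest called differences in each direction between basal and luminal cells and the largest per family, for up to 6 in each direction elsewhere, and for the 4 smallest p where fewer than 3 were called; other members were named with their family. Alternatives were array medians set to 0, quantile normalization, robust moderation, a replicate block, a minimum difference of 1, only the arrays compared, single probe sets, rank products (100 permutations, p under 0.01) and each array left out. Leaving out replicate 1 of both Thy-1+CD24medCD49fhigh and CD24medCD49f-/low cells, or the 2 arrays high in keratinocyte markers, was added after seeing the data. Protein sequences were not used here.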

Additional observations from a re-analysis of the deposited data

How the results depend on the processing

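Between basal and luminal cells, 30 of the 41 calls held in every limma alternative. Rank products called fewer genes than limma: 14 higher and 5 lower between basal and luminal cells, 2 and 7 for CD24highCD49fmed minus basal, 3 and 6 for CD24medCD49f-/low minus basal, and 1 in each comparison within a side (Ctsr higher, Serping1 higher, Wfdc18 lower). Over all features it called 445, 273, 249, 96, 65 and 65, where limma called 2227, 2189, 1342, 6, 2 and 1. Array medians set to 0 gave 13 genes higher in CD24medCD49f-/low than in basal cells, where 8 were higher without it. That scaling moved the median of all features from -0.17 to 0.11 there and from 0.35 to -0.03 between the luminal populations.

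With each array left out, CD24highCD49fmed minus basal had 9 to 14 genes higher and 17 to 27 lower (1138 to 2403 features), with 17 without CD24highCD49fmed replicate 1. CD24medCD49f-/low minus basal had 7 to 11 and 16 to 27, the luminal populations 0 to 3 and 0 to 2 (0 to 295 features), and Thy-1+ minus Thy-1- 0 (0 to 11 features). Without both replicates numbered 1, chosen after seeing the data, 24 and 15 genes were called between basal and luminal cells and 2 and 2 between the luminal populations (247 features). Without both arrays high in keratinocyte markers, also chosen after seeing the data, 23 and 11 genes were called between basal and luminal cells (1776 features), 11 and 21 for CD24highCD49fmed minus basal (1829), 3 and 16 for CD24medCD49f-/low minus basal (760) and 0 in the other comparisons. The luminal comparison had 15 features called with array medians set to 0, 0 with quantile normalization or only the arrays compared and 11 over single probe sets, and Thy-1+ minus Thy-1- had 13 with only the arrays compared.

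Of 1700 pairs of gene and alternative, 1588 kept direction and side of the threshold, 79 lost the call, 25 gained it and 8 turned. Those that turned, basal minus luminal, were Ctsd (-0.25 to 1.03 over the arrays left out, -0.28 without both replicates numbered 1), Ctsb (-0.04 without both), Adam10 (-0.918 to 0.045 over the arrays left out) and Spint2 (-0.60 to 0.51). In CD24medCD49fmed minus CD24medCD49fhigh, Serping1 was 0.60 with the replicate block and -1.49 to 0.48 over the arrays left out. The cause was not tested.

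Replicate numbers were not taken to pair the samples. Deviations of same-numbered arrays correlated from -0.20 to 0.08 across the sides, but at 0.52 between the luminal populations and 0.30 between Thy-1+ and Thy-1- cells. Whether such arrays share a preparation was not tested, and CD24medCD49fmed cells, with replicates 2 and 3, were not in the check. The replicate block gave CD24medCD49fmed replicate 3, the only array of that number, a term of its own. That array then added nothing to any difference. With the block, Ctsr was called between the luminal populations (limma adjusted p = 0.0168, 1 gene and 33 features), and Thy-1+ minus Thy-1- had 9 features called. In CD24medCD49fmed minus CD24medCD49fhigh, Wfdc18 was -2.87 with the block, resting on CD24medCD49fmed replicate 2 alone for its population. Between basal and luminal cells the block gained the calls of Wfdc2 (-1.71), St14 (-0.90) and Serpinb5 (0.89), and lost those of Adam23 (0.76) and Ctso (-0.81). The changes for Wfdc2, Adam23 and Ctso were also seen without CD24medCD49fmed replicate 3, so they are not a separate result.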
